A study of Mus musculus with 31 samples.

Results

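The Ftx knockout XX eyes are the female eyes of mouse embryos at embryonic day 13.5 that carried the Ftx deletion on both X chromosomes (Ftx-/-), and they are described here against wild-type (WT) XX eyes. Eyes were taken by the genotype and sex in their labels, which gave 11 Ftx-/- XX eyes and 3 WT XX eyes, 14 of the 20 eyes and 25 of the 31 arrays of the series. In the data used here each Ftx-/- XX eye had 2 arrays, whose log2 values were averaged to 1 value an eye, and each WT eye had 1. The series also holds 3 WT XY eyes and 3 Ftx-/Y eyes, which share the estimate of the spread and are otherwise set only beside the XX difference. All animals shared a pure C57BL/6N background, the deletion was made in the embryonic stem cell line EGR-G101 of that strain and is present in every tissue, and all eyes were of normal outward appearance. The targeted allele also lost expression of 2 microRNAs that lie in an intron of Ftx, so their loss and that of Ftx cannot be told apart here. The pigmented epithelium was surgically removed before RNA was extracted, so retina, lens and the tissue left around them were measured as 1 mixture. In such bulk RNA fewer cells of a type and less RNA in each cell cannot be told apart. The labels do not say whether any eyes came from the same embryo or litter, so the p-values measure only the spread between these eyes.

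Ftx is a long non-coding RNA gene of the X-inactivation centre, next to Xist, and the comparison asked how its loss alters expression from the X chromosome in eyes. The account below concerns the autosomal genes. At this stage the eye is built of a retina in which dividing progenitors give rise to ganglion cells first and to horizontal, amacrine and cone precursors soon after, and of a lens in which primary fibre cells have elongated and fill the vesicle. Lens fibre cells switch on crystallins, membrane proteins of the fibre and the proteins of the beaded filament under transcription factors such as Prox1, Maf, Hsf4 and Pitx3, and these transcripts are made at very high levels in the lens and at low levels elsewhere.

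The arrays lay on 4 slides. Slide 1 held every WT eye together with Ftx-/Y eye 1, slide 2 held Ftx-/- XX eyes 1 to 3 together with the other two Ftx-/Y eyes, and Ftx-/- XX eyes 4 to 7 and 8 to 11 filled slides 3 and 4. Genotype and slide can therefore not be told apart within the XX eyes, and only the 3 Ftx-/Y eyes link slides 1 and 2. Slide 1 was scanned on 1 day and slides 2 to 4 on another, so the day of the scan also separates WT XX from Ftx-/- XX eyes. Where the scan is a term of a fit below, it is this day. The check of the labels was the probe for Ftx (named B230206F22Rik on the array), whose signal was 50.04, 134 and 119 in WT XX eyes 1, 2 and 4 and between 8.25 and 37.4 in the Ftx-/- eyes, all 11 below every WT eye. It was well above background on 3 of 3 WT XX and 9 of 22 Ftx-/- XX arrays, and its signal lay under the limit of 500 used below. A second probe of that name lay at 49.6, 48.8 and 23.0 in the WT XX eyes and between 6.36 and 20.1 in the Ftx-/- eyes, well above background on 2 of 3 WT arrays and again lower in all 11 eyes. The 7 probes of Xist (5 of them named XIST on the array) differed by -0.70 to -0.25, of which limma called 3 lower. Across the XX arrays 48.2% to 70.4% of probes were well above background, and no probe described below was saturated on an XX array.

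Expression was compared on the log2 scale after quantile-spline normalisation of the scanner's processed signal, at 14052 probes with a mean WT XX signal above 500, of which 13400 were autosomal. By limma with Benjamini-Hochberg adjustment over all tested probes, 2235 autosomal probes were higher in the Ftx-/- XX eyes (16.7%) and 2470 lower (18.4%) at an adjusted p below 0.05, together 35.1%. With 1 probe for each of 8912 named autosomal genes, 1636 genes were higher (18.4%) and 1674 lower (18.8%), and these percentages are the background against which every gene list below is read. Values written with ± are the fitted log2 difference, Ftx-/- XX minus WT XX, and its standard error over 11 and 3 eyes. The median log2 difference over those genes was -0.0045 and the median standard error of a probe was 0.093. For some genes below all 11 Ftx-/- XX eyes lie above or below every WT XX eye. The share of all autosomal probes that separate in this way is not given, so separation does not set a gene apart from the 35.1% called. The difference between the XX and the XY change passed at no autosomal probe (0%), while 1868 had an unadjusted p below 0.05, so no change below is called particular to XX eyes. When slide was a term of the fit, which rests on those 3 Ftx-/Y eyes, 10 autosomal probes were called by limma (1 higher and 9 lower), and 2279 had an unadjusted p below 0.05. With slide as a random block 1028 were higher and 1318 lower, and without WT XX eye 1 the counts were 1467 and 1546. The balance of higher and lower calls turned with the limit set on the mean of the 14 XX eyes (2448 and 2266) and with arrays scaled to the 75th percentile (2523 and 2098).

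Probe sequence moved with the difference, and the sequences of a few of the probes with the largest changes show how. Each is a 30-base part of a 60-base probe, 5′ to 3′ on the probe's strand as deposited, around the longest 2-base repeat or run of C, which is in capitals.
Ralgps1: gtgcgcgcgGTGTGTGTGTGTgagcgagtg
Suv39h2: tgtgtgtctGTGTGTGTGTGTtgcttacta
Ccdc138: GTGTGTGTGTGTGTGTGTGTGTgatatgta
Pign: tgctgtgACACACACACACACACattgcac
March1: aaatgACACACACACACgcacacacacaca
Efna3: cgaagcatgggaggtgCCCCCtgtcctctc
Dvl3: CCCCCaggagcccctccagggcgtgacctg
Cd3e: tgaatacaccagCCCCCtctctgctaatgc
The first 3 carry copies of GT and were higher in Ftx-/- XX eyes, by 1.66, 1.51 and 1.43 on the log2 scale. Pign and March1 carry copies of AC and differed by -1.71 and -1.57, and Efna3, Dvl3 and Cd3e carry 5 C in a row and differed by -1.87, -1.67 and -1.43. Over all tested autosomal probes, those with 12 or more bases of GT or TG copies numbered 95 and had a median of 1.13, and 91.6% of them were called higher and 0 lower. Those with 12 or more bases of AC or CA copies numbered 50 and had a median of -1.35, with 74% called lower and 0 higher. In 389 probes with a run of 5 or more C the median was -0.25 and 41.9% were called lower, against 5.36% of the 1325 probes with no 2 C in a row. The XX difference also fell as probe GC content rose, from a median of 0.33 in 127 probes below 30% GC to -0.32 in 1325 probes of 55% GC or more. Across the 13400 probes its correlation with GC content was -0.49, against -0.20 for the XY difference, as a description over probes of the same arrays. Each of the 11 Ftx-/- XX eyes had this slope, between -0.30 and -0.18 log2 units for each 10 points of GC, while the WT XX eyes lay between -0.022 and 0.038. Composition and group moved together here, so the counts of calls after removing the GC trend of each eye are given beside the gene lists where they differ. With that trend removed limma called 1717 autosomal probes higher and 1363 lower. March1 and Pign lost their calls without WT eye 1, 2 or 4 (limma adjusted p 0.061 to 0.12).

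**Figure D1:**
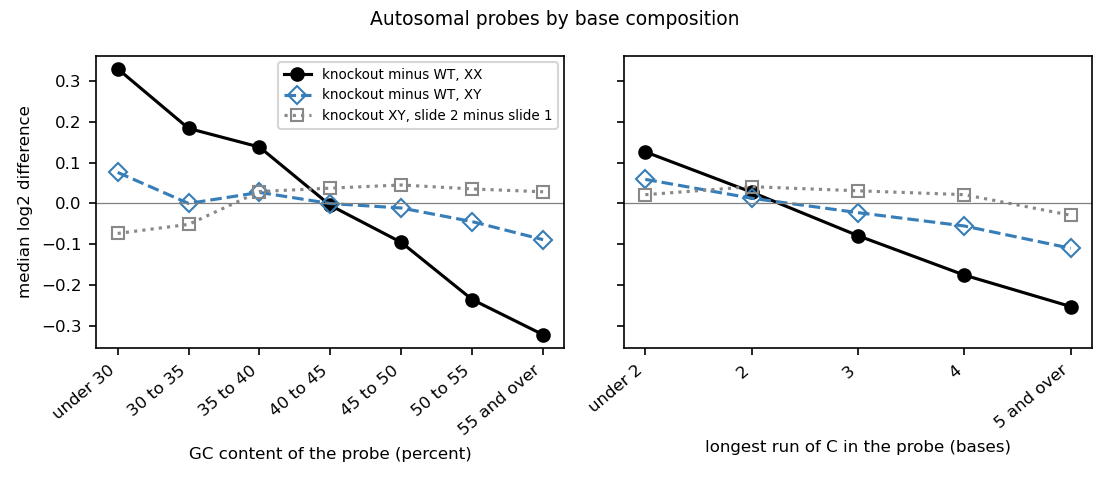
Median log2 difference (vertical axis) of tested autosomal probes by GC content of the probe in percent (left) and by its longest run of C in bases (right). Filled circles are Ftx-/- minus WT in XX eyes, diamonds the same in XY eyes and squares the Ftx-/Y eyes of slide 2 minus the one of slide 1, and the XX median falls from 0.33 to -0.32 with GC content and from 0.13 to -0.25 with the run of C.

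The autosomal genes were then grouped into 14 lists of cell type markers and 22 lists of functions. The lens lists lay farthest below 0 among lists with 8 or more tested genes, splicing factors had the highest median of those lists, and most others had medians within 0.2 of 0. Within a list the Ftx-/- eyes of slides 2, 3 and 4 can be read apart against the same 3 WT eyes. Each of the 14 XX eyes was also left out in turn, and of 199 called genes that were in a list or named, 67, 58 and 42 were no longer called without WT eye 1, 2 and 4, against 3 to 12 without any 1 Ftx-/- XX eye. A count of a list in brackets below is that without the eye named.

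**Figure D2:**
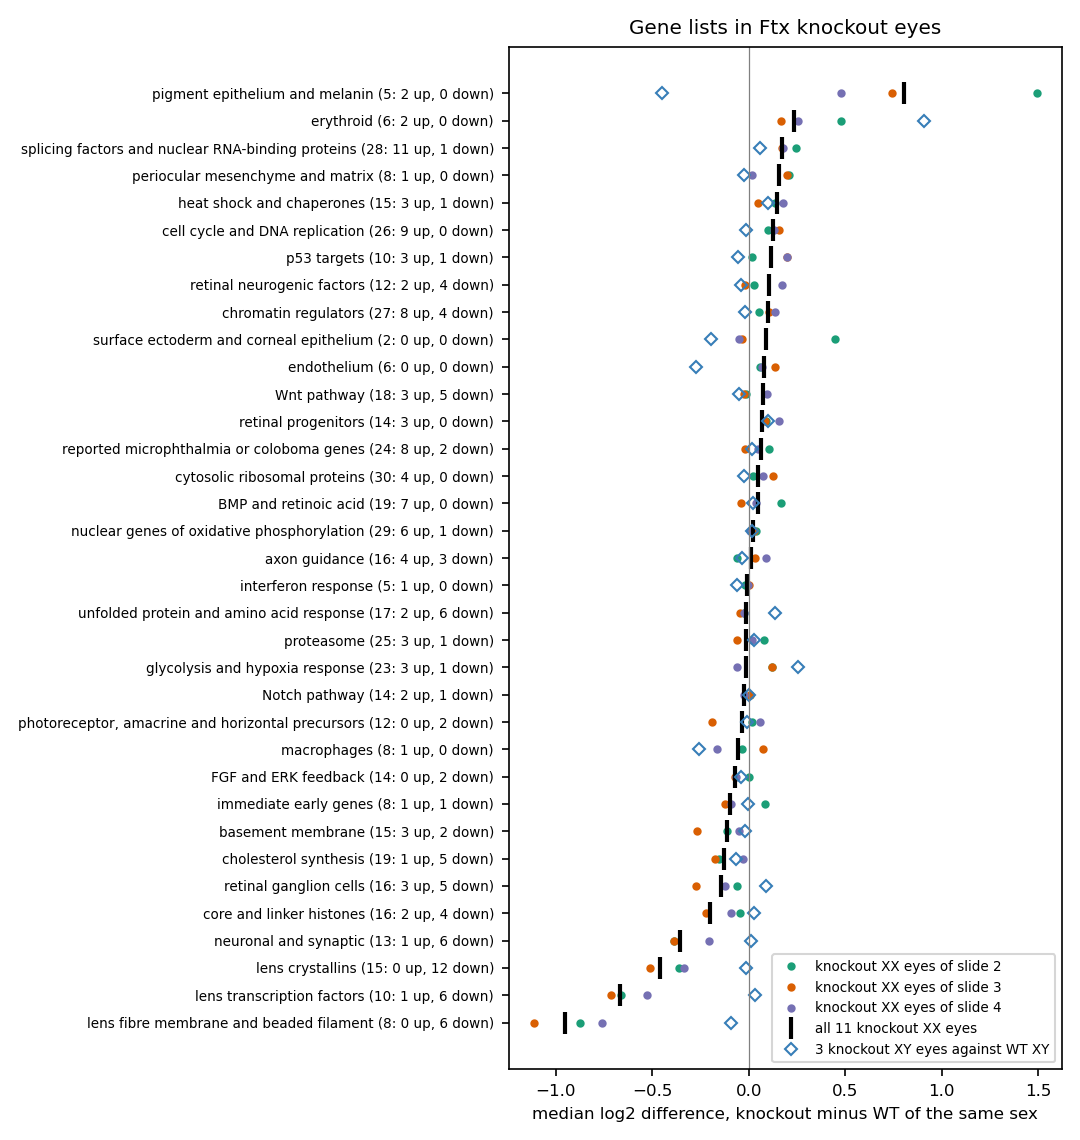
Median log2 difference (Ftx-/- XX minus WT XX, horizontal axis) of each of 35 gene lists with a tested member, with dots for the Ftx-/- eyes of slides 2, 3 and 4, a black tick for all 11 eyes and a diamond for the Ftx-/Y minus WT XY difference. The 3 lens lists have medians of -0.46, -0.95 and -0.67 and lie below 0 on every slide, while their XY medians lie between -0.09 and 0.03.

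Lens genes were lower in the Ftx-/- XX eyes. Of 39 lens genes in 3 lists 33 were tested, and limma called 24 of them lower and 1, Sox2, higher, against 18.8% and 18.4% of all named genes. The median log2 difference of the 33 genes was -0.53. In 1 of them the Ftx-/- mean lay under the signal limit, so that gene passed it only through the WT XX eyes. With the limit set on the mean of the 14 XX eyes 23 were called lower. The 8 tested genes of the fibre membrane and beaded filament had the lowest median, -0.95, with 6 lower. Bfsp1, the beaded filament protein filensin (mm9 chr2:143652265-143652324), had a signal of 11375, 11172 and 14046 in WT eyes 1, 2 and 4 and of 4097 to 8844, with a median of 5499.7, in the Ftx-/- eyes, and Lim2, a fibre membrane protein (chr7:50685484-50685971), one of 6608, 6110.4 and 7809.8 in WT eyes 1, 2 and 4 and of 2677 to 4945, with a median of 3336, in the Ftx-/- eyes. In both genes the groups did not overlap, with differences of -1.11 ± 0.18, limma adjusted p = 0.00026 for Bfsp1 and -1.04 ± 0.15, limma adjusted p = 0.0001 for Lim2. The XY means of Bfsp1 were 12345 in WT and 11039.9 in Ftx-/Y eyes. Grifin, a galectin-related lens protein, differed by -0.89 ± 0.14, limma adjusted p = 0.00018, with all 11 eyes below every WT eye. Gja3, a gap junction connexin of lens fibres, and Bfsp2, the partner of Bfsp1, were lower, at -1.02 and -0.86. The RNA granule protein Tdrd7 and the fibre water channel Mip had differences of -0.31 and -0.26 and did not pass. Gja3 lost its call without WT eye 4 (limma adjusted p = 0.077).

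Of 15 tested crystallins, the refractive proteins of the lens, 12 were lower (6 without WT eye 4) and none was higher, with a median of -0.46. Cryab, the small heat shock protein alpha-B crystallin (chr9:50564566-50564625), had a signal of 41449, 41214 and 55860.0 in WT eyes 1, 2 and 4 and of 18863 to 31803, with a median of 24923, in the Ftx-/- eyes. All 11 Ftx-/- eyes were below the 3 WT eyes (-0.87 ± 0.13, limma adjusted p = 9.6e-05), and the XY means were 42609.7 in WT and 38492 in Ftx-/Y eyes. Crygb differed by -0.95 ± 0.17, limma adjusted p = 0.00047, Crygd by -0.50 ± 0.11, limma adjusted p = 0.0016 and Cryga by -0.36 ± 0.08, limma adjusted p = 0.0033. All 11 Ftx-/- eyes were below every WT eye in these 3 genes. The gamma crystallins are near-identical copies, so their probes may share transcripts and their values are not independent. Among the others Crybb1 had a difference of -0.53, Cryba4 of -0.49 and Crybb3 of -0.31, all called, whereas Cryaa, the other alpha crystallin, had 0.075 and did not pass. With the GC trend removed 2 of the 15 crystallins were called lower and the median was -0.24. The same step left 6 of 8 fibre membrane genes and 5 of 10 transcription factors lower, with medians of -0.71 and -0.47. Cryba4 lost its call without WT eye 1, 2 or 4, Crybb1 without WT eye 4 and Crybb3 without WT eye 1, 2 or 4 or Ftx-/- XX eye 1, 4, 5, 6, 7, 9, 10 or 11 (limma adjusted p 0.051 to 0.27). Crybb3 had -0.20 without WT eye 4 (limma adjusted p = 0.27).

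Lens transcription factors were lower in 6 of 10 cases, with a median of -0.67. With the signal limit set on the mean of the 14 XX eyes 5 of 9 were lower, with a median of -0.65. Pitx3, a homeodomain factor needed for lens development (chr19:46210179-46210238), had a signal of 2765, 2165 and 2905 in WT eyes 1, 2 and 4 and of 1391 to 1934, with a median of 1622, in the Ftx-/- eyes. Every Ftx-/- eye was below every WT XX eye (-0.65 ± 0.10, limma adjusted p = 0.00016), and the XY means were 1966 and 2004. Foxe3, the forkhead factor of the lens epithelium, had a signal of 1074, 751 and 1369 in WT eyes 1, 2 and 4 and of 430.3 to 708, with a median of 527, in the Ftx-/- eyes, below every WT eye in 11 of 11 eyes (-0.93 ± 0.16, limma adjusted p = 0.0004). Gata3 differed by -0.69 ± 0.13, limma adjusted p = 0.00062. Hsf4, which drives crystallin transcription in fibres, differed by -0.99, Prox1, required for fibre elongation, by -0.85, and Sox1, a regulator of the gamma crystallins, by -0.69, all called. Maf and Six3 had values of -0.054 and -0.40 and did not pass. Sox2, which is also made throughout the retinal progenitors, had a signal of 3555, 3259 and 3303 in WT eyes 1, 2 and 4 and of 3915 to 4807, with a median of 4263, in the Ftx-/- eyes and was higher in all 11 eyes (0.37 ± 0.07, limma adjusted p = 0.00075).

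The lens lists had the same sign in each Ftx-/- XX eye. The median of the fibre membrane list, taken against the WT XX mean, lay between -1.25 and -0.41 in the 11 eyes, that of the crystallins between -0.70 and -0.10, and that of the transcription factors between -0.84 and -0.24. By slide the fibre membrane median was -0.87, -1.11 and -0.76 on slides 2, 3 and 4. In the XY eyes the 33 lens genes had a median difference of -0.01 between genotypes, and the median of the XX minus XY difference was -0.48, with 31 of 33 genes below 0. That difference had an unadjusted p below 0.05 and a negative sign in 18 genes, and passed the adjustment in none by limma. Eyes could also be compared within a slide. On slide 2 the 3 Ftx-/- XX eyes were below the 2 Ftx-/Y eyes at 32 of 33 lens genes, with a median of -0.38, while on slide 1 the 3 WT XX eyes were above the 3 WT XY eyes at 24 of 33, with a median of 0.06. With slide as a term the median XX difference of the lens genes was -0.59 and limma called none of them, and with slide as a random block 18 were called lower. Markers of the mesenchyme around the eye were higher in the same Ftx-/- XX eyes, with 8 of 22 called when no signal limit was set and a median of 1.46, though none was called without WT eye 1. Their part in the lens values was not tested.

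**Figure D3:**
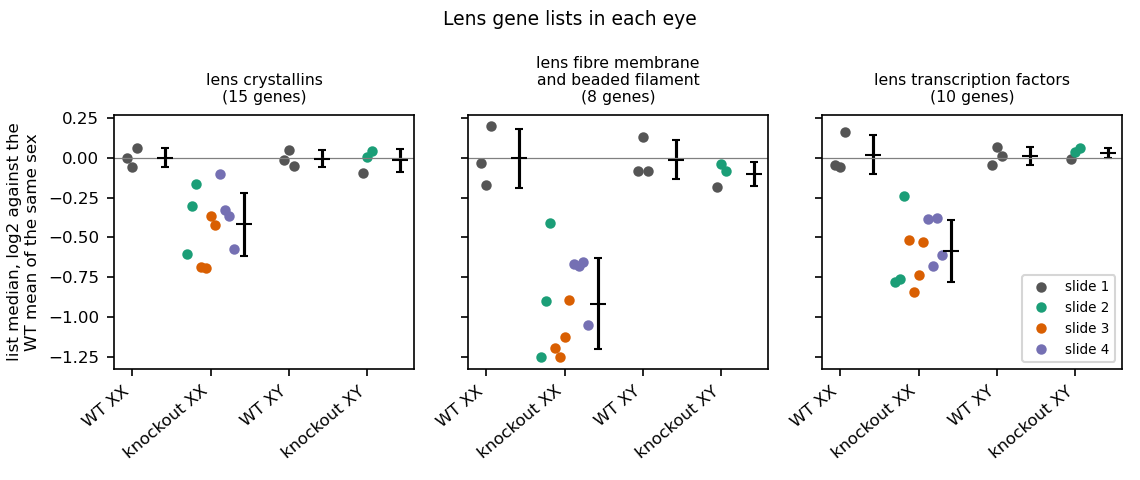
Median over the genes of each lens list in every eye, on the log2 scale against the WT mean of the same sex (vertical axis), by group, with colour for the slide and bars for the group mean and SD. All 11 Ftx-/- XX eyes lie below 0 in the 3 lists, and the WT XX, WT XY and Ftx-/Y eyes lie between -0.18 and 0.20.

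Genes of neurons and synapses were the other group with a clearly negative median, -0.36 over 13 tested genes, of which 6 were lower (2 without WT eye 1 and 3 without WT eye 2) and 1, the kinesin Kif5c, higher. Syt1, the calcium sensor of synaptic vesicles, differed by -0.54 ± 0.15, limma adjusted p = 0.0085, and Crmp1, a cytoskeletal protein of growing axons, by -0.44 ± 0.13, limma adjusted p = 0.014. Celf4 was lower, at -0.41, as were Mapt, which encodes tau, at -0.60, and Dpysl3 at -0.36. Snap25, of the synaptic fusion complex, had the most negative value, -1.18, but varied between eyes and did not pass (limma adjusted p = 0.053). With the GC trend removed 5 were called lower and none higher, Kif5c then having 0.22 (limma adjusted p = 0.15). All 13 genes were lower in Ftx-/- XX than in Ftx-/Y eyes on slide 2, with a median of -0.45, and all 13 were also lower in WT XX than in WT XY eyes on slide 1, with a median of -0.15. Crmp1, Dpysl3 and Mapt lost their calls without WT eye 1 or 2, Kif5c without WT eye 1, 2 or 4 and Syt1 without WT eye 1 (limma adjusted p 0.052 to 0.15).

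Markers of retinal ganglion cells, the first retinal neurons to form, had 5 of 16 lower (2 without WT eye 1, none without WT eye 2), 3 higher (none without WT eye 1 or 4) and a median of -0.14. With slide as a term the list median was -0.057. Sncg, gamma-synuclein, had a signal of 20549, 24151 and 17553 in WT eyes 1, 2 and 4 and of 10492 to 19224, with a median of 13789, in the Ftx-/- eyes and was lower with overlapping groups (-0.52 ± 0.14, limma adjusted p = 0.0099). Tubb3, the neuronal beta-tubulin, differed by -0.46 ± 0.12, limma adjusted p = 0.0056 and Pou4f1, a POU factor of ganglion cells, by -0.33 ± 0.09, limma adjusted p = 0.011. Pou4f2, which specifies ganglion cells, had a difference of 0.055 and did not pass, and Isl1, its partner, was higher by 0.33. Nhlh2 and Elavl4 were the other two higher genes, by 0.34 and 0.40. After removal of the GC trend none of the 3 was called higher and 4 of 16 were lower. Elavl4 and Nhlh2 lost their calls without WT eye 1 or 4, Isl1 without WT eye 1 or 4 or Ftx-/- XX eye 2, Pou4f1 without WT eye 1 or 2, and Sncg and Tubb3 without WT eye 2 (limma adjusted p 0.05 to 0.19).

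Among 12 retinal neurogenic factors 4 were lower (1 without WT eye 1, 2 without WT eye 2) and 2 higher. Neurod1 and Atoh7, the factor required for ganglion cells, were lower, at -0.37 and -0.32, and Hes6 by -0.22, though Hes6 had 0.11 with the GC trend removed. Neurog2 had 0.18 and did not pass, while the Notch ligand Dll1 and the antiproliferative gene Btg2 were higher by 0.27 and 0.32. Without the GC trend 1 of the 12 was called lower and none higher. Rxrg, the retinoid receptor of cone precursors, had a signal of 2395, 2909 and 2279 in WT eyes 1, 2 and 4 and of 955 to 2164, with a median of 1576, in the Ftx-/- eyes and was lower (-0.73 ± 0.19, limma adjusted p = 0.0067), as was Ptf1a, the horizontal and amacrine factor (-0.45 ± 0.15, limma adjusted p = 0.031). The other 10 tested genes of photoreceptor, amacrine and horizontal precursors did not pass, among them Otx2 with -0.10, Onecut1 with 0.026 and Foxn4 with -0.14. Once the GC trend was removed 1 gene of this list was called lower. Of 14 tested genes of retinal progenitors 3 were higher and none lower, and the median was 0.07. The share higher was near the 18.4% of all named genes. Zfp36l1, an RNA-binding protein, differed by 0.27 ± 0.08, limma adjusted p = 0.012, and Sox2 was another of the 3. Pax6, Rax and Lhx2 had values of -0.27, 0.077 and 0.22 and did not pass. After removal of the GC trend 3 were higher and 1, the Notch effector Hes1, was lower (-0.65, limma adjusted p = 0.027). Atoh7, Neurod1 and Ptf1a lost their calls without WT eye 1 or 2, Btg2 without WT eye 1 or 4, Rxrg without WT eye 2, and Zfp36l1 without WT eye 1 (limma adjusted p 0.052 to 0.17). Hes6 had -0.14 without WT eye 1 (limma adjusted p = 0.19).

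Of 24 tested genes reported in microphthalmia or coloboma, 8 were higher (5 without WT eye 1, 4 without WT eye 2) and 2 lower, with a median of 0.06. Their probes had a median GC content of 39.2%, and 32.5% of all autosomal probes with 35% to below 40% GC were higher. The 2 lower genes were the lens factors Foxe3 and Pitx3. The higher ones included Rarb, a retinoic acid receptor (0.54), Aldh1a3, which makes retinoic acid in the ventral retina (0.45), Vax2, a ventral homeodomain factor (0.36), and the chromatin remodeller Chd7 (0.43 ± 0.09, limma adjusted p = 0.0014). With the GC trend removed 4 were called higher and 1 lower. Fzd5, Six6, Bmp4 and Bmp7 had values of -0.15, -0.064, 0.13 and 0.050 and did not pass. Vax2 lost its call without WT eye 2 or 4 (limma adjusted p 0.057 to 0.15). Rarb had 0.35 without WT eye 1 (limma adjusted p = 0.2).

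Splicing factors and nuclear RNA-binding proteins had 11 of 28 tested genes higher, 1 lower and a median of 0.17. Against that stand 18.4% of all named genes, but the median GC content of the list's probes was 36.7%, and of all autosomal probes with 35% to below 40% GC 32.5% were higher, with a median of 0.14. Clk1, a kinase that phosphorylates SR proteins (chr1:58469863-58470285), had a signal of 1031, 1089 and 1459 in WT eyes 1, 2 and 4 and of 1747 to 2608, with a median of 1959, in the Ftx-/- eyes and was above every WT eye in 11 of 11 eyes (0.77 ± 0.11, limma adjusted p = 0.00011). Its relative Clk4 was higher by 0.47. Hnrnpa1 differed by 0.43 ± 0.08, limma adjusted p = 0.00056, Srsf2 by 0.41 ± 0.06, limma adjusted p = 0.00015 and Srsf10 by 0.27 ± 0.05, limma adjusted p = 0.00068. Hnrnph1, Luc7l3 and Srsf7 were higher by 0.39, 0.33 and 0.29, and Taf15 was lower, at -0.66. The list median was above 0 in all 11 eyes, between 0.11 and 0.25. The median XY difference was 0.06, and the WT XX eyes were above the WT XY eyes at 5 of the 28 genes. Removing the GC trend left 7 higher and 1 lower. Clk4 lost its call without WT eye 1 or 2 or Ftx-/- XX eye 1, 2, 3, 9, 10 or 11 and Luc7l3 without WT eye 1 (limma adjusted p 0.053 to 0.37). Clk4 had 0.25 without WT eye 1 (limma adjusted p = 0.37).

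Cell cycle and DNA replication genes had 9 of 26 higher (5 without WT eye 2), none lower and a median of 0.13. Their probes also had a median GC content of 36.7%. Over all 33 tested probes of these genes 10 were higher and 1 lower, with a median of 0.12. Cdk1, the mitotic kinase (chr10:68801072-68801131), had a signal of 1588, 2102 and 2344 in WT eyes 1, 2 and 4 and of 2782 to 5309, with a median of 3643, in the Ftx-/- eyes, and 11 of the 11 eyes lay above every WT eye (0.94 ± 0.19, limma adjusted p = 0.00098). Gmnn, which restrains replication licensing, differed by 0.58 ± 0.12, limma adjusted p = 0.0013, Pcna, the replication clamp, by 0.28 ± 0.05, limma adjusted p = 0.00091 and Mcm4, of the replicative helicase, by 0.24 ± 0.06, limma adjusted p = 0.0041. Mki67, Top2a and Ccnb2 had 0.046, 0.12 and -0.13 and did not pass. After removal of the GC trend 3 were called higher and 1 lower. On slide 2 the Ftx-/- XX eyes were below the Ftx-/Y eyes at 12 of the 26 genes, with a median difference of 0.013, and with slide as a term the median was 0.018. Chromatin regulators had 8 of 27 higher and 4 lower (3 and 2 without WT eye 1), on probes with a median GC content of 38.3%. Over all 40 tested probes of these genes 9 were higher and 7 lower, with a median of 0.010. With 1 probe a gene the median was 0.098, and with slide as a term it was 0.010. Smchd1, an autosomal gene whose product acts on the inactive X chromosome, differed by 0.51 ± 0.09, limma adjusted p = 0.00066, and the nucleosome remodeller Smarca5 by 0.29 ± 0.06, limma adjusted p = 0.00079. Suz12, of the Polycomb complex, was higher by 0.29, whereas its partners Ezh2 and Eed had -0.065 and 0.072 and did not pass. Trim28, a corepressor, was lower (-0.32 ± 0.06, limma adjusted p = 0.00089), as were the maintenance methyltransferase Dnmt1 (-0.35) and the heterochromatin protein Cbx5 (-0.47). After the GC trend was removed 2 were higher and 4 lower. Core and linker histones had 4 of 16 lower and 2 higher (1 without WT eye 1), with a median of -0.20. Over all 20 tested probes of these genes 4 were higher and 4 lower with a median of -0.038, and with slide as a term the list median was -0.049. Hist4h4 and Hist1h4c were lower, at -0.64 and -0.62, and H3f3a, a replacement histone, was higher by 0.26. Histone genes are near-identical copies, so a probe may measure several of them. Without the GC trend 2 were higher and 2 lower. Cbx5 and Suz12 lost their calls without WT eye 1 and Dnmt1 without WT eye 2 (limma adjusted p 0.051 to 0.14).

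Genes for cytosolic ribosomal proteins changed little in size. Of 30 tested genes 4 were higher, none was lower, and values ran from -0.16 to 0.28. Over all 62 tested probes of these genes 5 were higher and 4 lower, with a median of 0.031. Rpl9 differed by 0.28 ± 0.06, limma adjusted p = 0.0017, Rps25 by 0.20 ± 0.05, limma adjusted p = 0.0045 and Rps6 by 0.20 ± 0.04, limma adjusted p = 0.00089, and Rpl27 was the fourth (0.13), with a value of -0.012 when arrays were scaled to the 75th percentile and -0.018 with the GC trend removed. Once the GC trend was removed 10 were called higher. Nuclear genes of oxidative phosphorylation had 6 of 29 higher and 1 lower with a median of 0.02. The share higher, like those of the ribosomal, proteasome and heat shock lists, was near or below the 18.4% of all named genes. Sdha and Sdhc, subunits of succinate dehydrogenase, differed by 0.39 ± 0.06, limma adjusted p = 9.2e-05 and 0.38 ± 0.08, limma adjusted p = 0.002, of which Sdhc had -0.017 with the GC trend removed, and Cox4i1, a cytochrome oxidase subunit, was lower, at -0.42. Without the GC trend 5 were higher and 1 lower. Of the proteasome 3 of 25 genes were higher, with Psma4 at 0.36, and 1, Psmd2, was lower at -0.42 (3 lower without Ftx-/- XX eye 9 or 10, 2 without 3 or 11). Heat shock proteins and chaperones had 3 of 15 higher (none without WT eye 2, 6 without Ftx-/- XX eye 4), among them the mitochondrial chaperonin pair Hspe1 (0.29) and Hspd1 (0.19), and 1 lower, the cochaperone Stip1 (-0.36). Without the GC trend 4 were higher and none lower, Stip1 having -0.18 (limma adjusted p = 0.11). Hspd1 and Hspe1 lost their calls without WT eye 2 and Rpl27 without WT eye 1 or 4 (limma adjusted p 0.052 to 0.23). Rpl27 had 0.086 without WT eye 1 (limma adjusted p = 0.23).

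Genes of glycolysis and the response to low oxygen had 3 of 23 higher (6 without WT eye 2 or 4) and 1 lower. Both shares were below the 18.4% higher and 18.8% lower of all named genes. Ak4, a mitochondrial adenylate kinase induced by low oxygen (chr4:101139464-101139523), had a signal of 1312, 1779.8 and 1652 in WT eyes 1, 2 and 4 and of 2347 to 3165, with a median of 2774, in the Ftx-/- eyes. Every Ftx-/- eye was above every WT eye (0.81 ± 0.10, limma adjusted p = 3.1e-05). Hk2, the inducible hexokinase, had a signal of 702, 914 and 849.7 in WT eyes 1, 2 and 4 and of 945 to 1505, with a median of 1292, in the Ftx-/- eyes, all 11 above every WT eye (0.61 ± 0.12, limma adjusted p = 0.00073). Pfkfb3, which makes the activator of phosphofructokinase, differed by 0.52 ± 0.10, limma adjusted p = 0.00069. The 3 genes had XY differences of 0.73, 0.53 and 0.75, of the same sign as in XX eyes. Ndrg1, a stress-induced gene, was lower, at -0.38, and other genes that respond to low oxygen, Vegfa, Slc2a1, Pdk1 and Bnip3, had 0.22, 0.22, 0.064 and -0.048 and did not pass. The list median was -0.02 in XX and 0.25 in XY eyes. With the GC trend removed 4 were called higher and none lower, Ndrg1 having -0.28 (limma adjusted p = 0.068). Txnip, which binds thioredoxin and limits glucose uptake (chr3:96365147-96365206), was among the 12 largest rises of named genes on probes without a long repeat. Its signal was 989.8, 1219 and 1016 in WT eyes 1, 2 and 4 and lay between 1765 and 2874, with a median of 2343, in the Ftx-/- eyes, with no overlap between the groups (1.13 ± 0.12, limma adjusted p = 2e-05), and its XY difference was 0.63. Ndrg1 lost its call without WT eye 1 or 2 (limma adjusted p 0.051 to 0.069).

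Among stress and signalling genes B2m, the light chain of class I major histocompatibility molecules, was the called gene of 5 tested in the interferon list. Its signal was 2161, 2029 and 1958 in WT eyes 1, 2 and 4 and lay between 2880.3 and 4353, with a median of 3351, in the Ftx-/- eyes, above every WT eye in 11 of 11 eyes (0.76 ± 0.11, limma adjusted p = 0.00013), with an XY difference of 0.15. The interferon-induced genes Isg15 and Bst2 had -0.59 and -0.70 and did not pass. Of 17 genes of the unfolded protein and amino acid response 6 were lower (3 without WT eye 4) and 2 higher (1 without any 1 WT eye). Over all 22 tested probes of these genes 9 were lower and 2 higher. Their median was -0.20, against -0.013 with 1 probe a gene. Calr and Hsp90b1, chaperones of the endoplasmic reticulum, were lower, at -0.41 and -0.31, and Shmt2 and Asns, which make glycine and asparagine, by -0.38 and -0.27. Dnajb9 and Atf4 were higher by 0.29 and 0.31. With the GC trend removed 3 were lower and none higher. In cholesterol synthesis 5 of 19 were lower (3 without WT eye 1 or 2) and 1 higher. Insig1, a target of the sterol-sensing SREBP pathway, differed by -0.70 ± 0.19, limma adjusted p = 0.0092 and Mvd by -0.51 ± 0.10, limma adjusted p = 0.0011, while Cyp51 was higher (0.55 ± 0.13, limma adjusted p = 0.0037). Sqle and Idi1, other enzymes of the pathway, had -0.23 and 0.064 and did not pass. After removal of the GC trend 2 were lower and 1 higher. Targets of p53 had 3 of 10 higher, Trp53inp1 (0.47), Ccng1 (0.42) and Btg2 (0.32), and the proapoptotic Bbc3 lower (-0.43). Without the GC trend 1 was higher and none lower. Of 8 immediate early genes, whose transcripts respond to handling, Btg2 was higher and Jund lower (-0.40). Atf4 and Calr lost their calls without WT eye 1, 2 or 4, Bbc3 without WT eye 2, Btg2 without WT eye 1 or 4, Hsp90b1 without WT eye 1, 2 or 4 or Ftx-/- XX eye 6, 7, 8, 9, 10 or 11, and Insig1 without WT eye 1 (limma adjusted p 0.053 to 0.25).

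**Figure D4:**
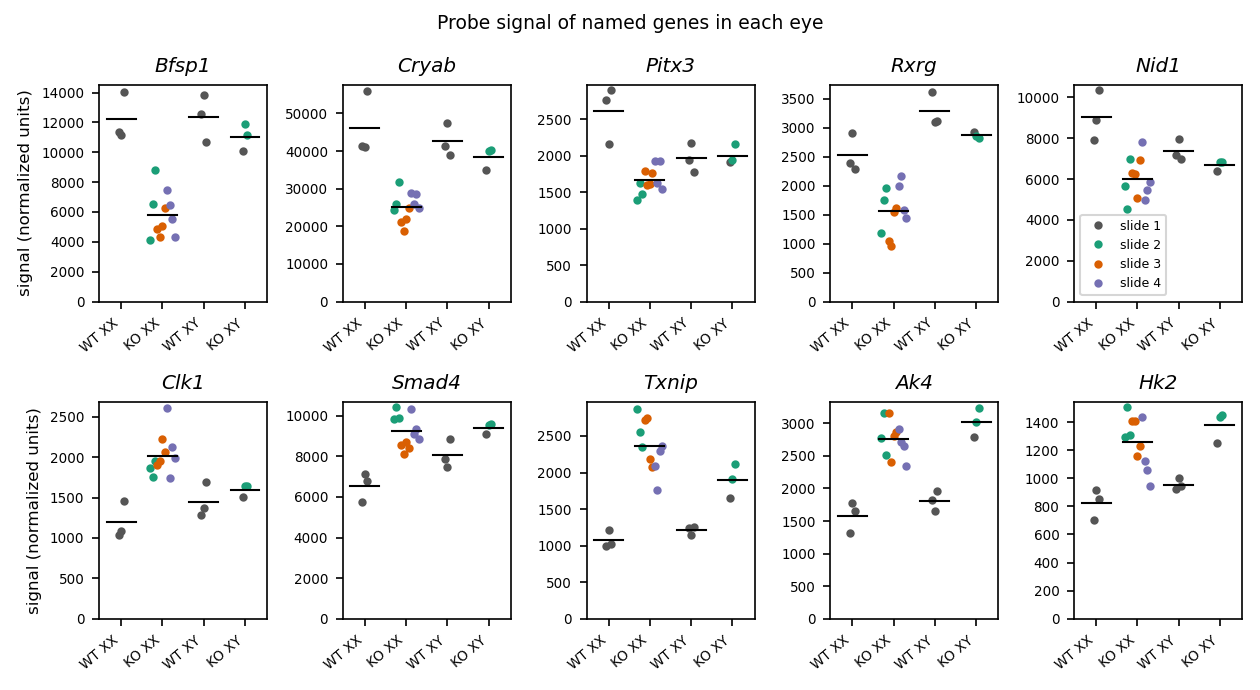
Normalised probe signal on a linear scale from 0 (vertical axis) of 10 autosomal genes in every eye, by group, with colour for the slide and a line at the group mean (n = 3, 11, 3 and 3 eyes). Bfsp1, Cryab and Pitx3 are lower in all 11 Ftx-/- XX eyes than in the 3 WT XX eyes, and Smad4, Txnip, Ak4 and Hk2 are higher in all 11.

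In the pathways that pattern the eye, BMP and retinoic acid genes had 7 of 19 higher and none lower. Their probes had a median GC content of 38.3%, and 32.5% of all autosomal probes with 35% to below 40% GC were higher. Smad4, the shared mediator of BMP and TGF-beta signals, had a signal of 5729, 7152 and 6796 in WT eyes 1, 2 and 4 and of 8131 to 10451, with a median of 9087, in the Ftx-/- eyes, with all 11 Ftx-/- eyes above every WT eye (0.50 ± 0.08, limma adjusted p = 0.00023). Id2, a BMP target, differed by 0.40 ± 0.09, limma adjusted p = 0.0026 and Smad5 by 0.28 ± 0.06, limma adjusted p = 0.0014. Id1, Id3 and Id4, relatives of Id2, had -0.13, -0.012 and -0.26 and did not pass. The list median was 0.05, and 3 genes were called higher and 1 lower with the GC trend removed. Of 18 Wnt pathway genes 3 were higher (1 without WT eye 2) and 5 lower (2 without WT eye 1 or 2, 3 without WT eye 4), near the shares over all named genes of 18.4% and 18.8%. The receptor Fzd1 was higher (0.58 ± 0.11, limma adjusted p = 0.00056), as were beta-catenin, Ctnnb1 (0.25), and Dvl2 (0.20). The secreted inhibitor Sfrp1 (-0.43 ± 0.11, limma adjusted p = 0.0054), Dvl1 (-0.48 ± 0.09, limma adjusted p = 0.00051), the coreceptor Lrp5 (-0.46), the transcription factor Tcf7l2 (-0.75) and the kinase Gsk3b (-0.24) were lower. Once the GC trend was removed 3 were called higher and 1 lower. Of 14 FGF and ERK feedback genes 2 were lower, the receptor Fgfr1 (-0.33) and the FGF target Etv4 (-0.32), and 4 were lower with the GC trend removed. Leaving out Ftx-/- XX eye 1 or 8 added 2 higher. Of 14 Notch pathway genes Dll1 and Hey1 (0.28) were higher and Notch3 (-0.25) lower, against 1 higher and 3 lower with the GC trend removed. Ctnnb1 and Tcf7l2 lost their calls without WT eye 1 or 2, Dvl2 without WT eye 2 or 4 or Ftx-/- XX eye 5 or 6, Gsk3b without WT eye 1 or 2 or Ftx-/- XX eye 2, 4, 5, 6, 10 or 11, Lrp5 without WT eye 1, 2 or 4, Notch3 without WT eye 1, and Sfrp1 without WT eye 4 (limma adjusted p 0.05 to 0.25). Id2 had 0.21 without WT eye 1 (limma adjusted p = 0.043).

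Of 16 genes of axon guidance 4 were higher (2 without WT eye 1 or 4) and 3 lower, near the same shares. The ephrin Efnb2 and the receptor Epha5 were higher (0.56 ± 0.08, limma adjusted p = 0.0001 for Efnb2, and 0.47 ± 0.11, limma adjusted p = 0.0034 for Epha5), as were Plxna2 (0.37) and Robo2 (0.32). The receptor Ephb2, which ventral ganglion cells use, and the adhesion protein Nrcam were lower (-0.56 ± 0.12, limma adjusted p = 0.0016 for Ephb2, and -0.43 ± 0.11, limma adjusted p = 0.0067 for Nrcam), as was the repellent Slit1 (-0.44). With the GC trend removed 2 were higher and 3 lower. Basement membrane genes, whose products make the lens capsule and the vessels of the vitreous, had 2 of 15 lower and 3 higher (none without WT eye 1 or 2). Nid1, the linker protein nidogen (chr13:13604435-13604494), had a signal of 7910.4, 8907 and 10347 in WT eyes 1, 2 and 4 and of 4556 to 7798, with a median of 5865, in the Ftx-/- eyes and was below every WT eye in 11 of 11 eyes (-0.61 ± 0.13, limma adjusted p = 0.0014). Col4a2 was lower (-0.47 ± 0.11, limma adjusted p = 0.0038), its pair Col4a1 had -0.23 and did not pass, and Agrn, Col18a1 and Itga6 were higher by 0.40, 0.38 and 0.31, of which Agrn had -0.020 with the scan as a term. After removal of the GC trend 2 were lower and none higher. Agrn and Col18a1 lost their calls without WT eye 1 or 2, Itga6 without WT eye 1, 2 or 4 or Ftx-/- XX eye 5, 6, 7, 10 or 11 and Plxna2 and Robo2 without WT eye 1 or 4 (limma adjusted p 0.051 to 0.19).

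Markers of other tissues that the dissected eye can hold were mostly at low levels or varied between eyes. Of 14 pigment epithelium genes 5 were above the signal limit, and 2 were called higher (4 without Ftx-/- XX eye 8), Mitf (0.73 ± 0.23, limma adjusted p = 0.018) and Trpm1 (1.05 ± 0.37, limma adjusted p = 0.035). The signal of Mitf was 1248, 1275 and 1444 in WT eyes 1, 2 and 4 and lay between 1123 and 3508, with a median of 2329.6, in the Ftx-/- eyes, and the groups overlapped. The list median lay between -0.49 and 1.99 in the 11 Ftx-/- eyes, the WT XX eyes were below the WT XY eyes at all 5 genes with a median of -0.62, on slide 2 the Ftx-/- XX eyes were above the Ftx-/Y eyes at all 5 with a median of 1.27, and the XY difference between genotypes was -0.45. The melanosome genes Dct and Pmel had 1.05 and 0.81 and did not pass, and with the GC trend removed none of the 5 was called. The part of pigmented tissue left after dissection in any result above was not tested. Of 6 tested erythroid genes 2 were higher, the embryonic globins Hbb-bh1 (1.28 ± 0.28, limma adjusted p = 0.0018) and Hbb-y (0.53 ± 0.18, limma adjusted p = 0.026), with a list median of 0.24 in XX and 0.91 in XY eyes. The signal of Hbb-bh1 was 1285, 1735 and 1568 in WT eyes 1, 2 and 4 and lay between 2134 and 6102, with a median of 3563, in the Ftx-/- eyes, and the globin genes are close copies. Hbb-y had -0.11 with slide or with the scan as a term. With slide as a term Hbb-bh1 had 0.27 (limma adjusted p = 0.84) and the list a median of -0.46, and the Ftx-/Y eyes of slide 2 exceeded the one of slide 1 by 1.19 at Hbb-bh1. Without the GC trend 1 of the 6 was called higher. Adult-type Hba-a1 and Hbb-b1 had -0.10 and 0.016 and did not pass. Of 8 macrophage genes the fractalkine receptor Cx3cr1 was higher (0.52 ± 0.11, limma adjusted p = 0.0015), while Csf1r and Ctss had -0.0023 and 0.11 and did not pass. None of 6 endothelial genes passed (2 were higher without Ftx-/- XX eye 10, 1 without 2 or 3), with Kdr at 0.19 and Egfl7 at -0.031, nor did Krt18 (0.50) and Trp63 (-0.31) of the surface ectoderm, and none of 17 muscle genes reached the signal limit. Over all 7 tested probes of the endothelial genes 1 was called lower and none higher. Hbb-y and Trpm1 lost their calls without WT eye 1, 2 or 4 and Mitf without WT eye 1 or 2 (limma adjusted p 0.06 to 0.15).

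Of 22 genes of the periocular mesenchyme, the connective tissue around the eye cup, 8 were higher in Ftx-/- XX eyes when no signal limit was set, and all 8 lay under that limit. That limit was set on the WT XX mean, so it left out genes with signal mainly in the Ftx-/- eyes, and 14 of the 22 genes fell below it. Of the 8 tested, Col1a2, of type I collagen, was higher (1.09 ± 0.42, limma adjusted p = 0.047, but adjusted p = 0.077 in the fit with no limit), Fn1 and Sparc had 0.31 and -0.089, and the median was 0.16. With no limit, 8 of 22 were higher, none was lower and the median was 1.46, where 7.76% of autosomal probes were higher and their median was 0.018. Lumican (Lum), a proteoglycan of the corneal and scleral stroma, had a signal between 87.4 and 264 in the 3 WT XX eyes and between 403 and 8457, with a median of 1818, in the 11 Ftx-/- XX eyes (3.24 ± 0.86, limma adjusted p = 0.015 with no limit). Col3a1, a fibrillar collagen, lay between 204 and 525 in the 3 WT XX eyes and between 583 and 5698, with a median of 1440.3, in the 11 Ftx-/- XX eyes (1.98 ± 0.58, limma adjusted p = 0.025). Every Ftx-/- XX eye was above every WT XX eye in both genes. Their XY means were 809 in WT and 658 in Ftx-/Y eyes for Lum and 843 in WT and 599 in Ftx-/Y eyes for Col3a1, above the WT XX eyes. Col1a1 and the proteoglycan gene Dcn differed by 2.21 and 2.50 with no limit and were called, with Ftx-/- eyes above every WT XX eye in 11 and 10 of 11. Of the 22 genes 5 were well above background on no WT XX array. The signal summed over the list was between 164579 and 188123 in WT XX and between 157668 and 241396 in Ftx-/- XX eyes, and Sparc made up most of it. Without Sparc the sum ran from 18948 to 23695 in WT XX eyes and from 22250.2 to 79642, with a median of 35553, in Ftx-/- XX eyes, and in XY eyes from 20785 to 31149.6 in WT and 20529 to 27072 in Ftx-/Y. The list median with no limit was 2.06, 1.70 and 0.74 on slides 2, 3 and 4, the XY difference between genotypes was -0.041, and with slide as a term the median was 1.12 and limma called none. The calls rested on WT eye 1, without which none of the 22 genes was called and the median was 1.16, with a limma adjusted p of 0.13 for Lum and 0.21 for Col3a1. Leaving out 1 of the other 13 XX eyes gave 3 to 9 genes higher, none lower and medians of 1.28 to 1.57. How much such tissue was left on each eye is not given in the labels, and its part in the other results was not tested. Col1a2 lost its call without WT eye 1, 2 or 4 or Ftx-/- XX eye 2, 4, 5, 6 or 11 (limma adjusted p 0.056 to 0.16).

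The 12 largest rises among named autosomal genes on probes without a tandem repeat of 15 bases or more had a median of 1.26, with a median XY difference of 0.64. None of the 12 genes had another tested probe. Ralgps1, an exchange factor for Ral, had the highest value (1.66 ± 0.38, limma adjusted p = 0.0028), with a signal of 1349.9, 781 and 582 in WT eyes 1, 2 and 4 and of 872 to 4237, with a median of 2986, in the Ftx-/- eyes. Its Ftx-/- eyes spread over a wide range and 1 lay within the WT range, and its probe holds the GT copies printed above. Suv39h2, a histone methyltransferase of heterochromatin, differed by 1.51 ± 0.34, limma adjusted p = 0.0024, and its probe also holds them. The others were Gm11412 (1.60), BC048507 (1.46), Hbb-bh1, Eprs, a tRNA synthetase (1.27), Blcap (1.26), Txnip, Col1a2, Emp1, an epithelial membrane protein (1.05 ± 0.33, limma adjusted p = 0.018), Dpysl5 (1.05) and Ei24 (1.02). The probes of Gm11412, Blcap and Dpysl5 carry 8 or 10 bases of GT copies, and the 30-base windows of Txnip and Emp1 have no run of C beyond 2. Emp1 had 0.65 without WT eye 1 (limma adjusted p = 0.2).
Txnip: tcaattttgttttagtctCCgttatagatg
Emp1: Cgcattggtgggttattctagtactgtatt
With the GC trend removed Emp1 had 0.90 (limma adjusted p = 0.057), whereas Ralgps1 (1.98, limma adjusted p = 0.0022) and Suv39h2 (1.61, limma adjusted p = 0.0038) were still called. Emp1 had a signal of 326, 619 and 898 in WT eyes 1, 2 and 4 and of 721 to 2336, with a median of 1054, in the Ftx-/- eyes, with 7 of 11 Ftx-/- eyes above every WT eye.

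The 12 largest falls had a median of -1.61, a median XY difference of -0.99 and a median step of -1.02 between the Ftx-/Y eyes of slide 2 and the one of slide 1. They were Fgf6 (-1.89 ± 0.31, limma adjusted p = 0.00028), Efna3 (-1.87), Trio (-1.83), Spcs2 (-1.76), Dvl3 (-1.67), Cyp17a1 (-1.65), Krtap8-2 (-1.57), March1 (-1.57), Ptpn5 (-1.56), Slfn5 (-1.44), Cd3e (-1.43) and 4930432M17Rik (-1.42). Probes were tested only above the limit in WT XX eyes, and the Ftx-/- mean lay under it in 6 of the 12, Fgf6, Efna3, Trio, Krtap8-2, Cd3e and 4930432M17Rik, so these 6 passed only through the group where they were high. The signal of Fgf6 was 644, 673 and 397 in WT eyes 1, 2 and 4 and lay between 89.9 and 222, with a median of 147, in the Ftx-/- eyes. Of these 12 genes 3 had other tested probes, which had the same sign in 2 genes and the opposite sign at both other probes of Trio. Several, such as the hair protein gene Krtap8-2, the T cell receptor subunit gene Cd3e and the steroid enzyme gene Cyp17a1, are known from other tissues. Cyp17a1 turned to 0.20 with the scan as a term and had -1.32 with the GC trend removed (limma adjusted p = 0.075). Of the 12 probes 8 have 5 C in a row and 1 has 12 bases of AC copies. Among probes with a longer repeat, the largest rises were Ermn (2.35), 2310028H24Rik (1.49), Ccdc138 and 4933427D06Rik (1.42), and the largest falls Pign and 5330437I02Rik (-1.69). 5330437I02Rik lost its call without WT eye 2 or 4, Cyp17a1 without WT eye 1 or 2, Ermn without WT eye 1, and March1 and Pign without WT eye 1, 2 or 4 (limma adjusted p 0.051 to 0.12).

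With slide as a term of the fit, the genes named among the calls were Dap3, a mitochondrial ribosomal protein (-1.46, limma adjusted p = 3.4e-05), Map2k5, a MAP kinase kinase (-0.97, limma adjusted p = 0.00013), Taf9 (-1.41, limma adjusted p = 0.00045), Ndufa7 (-1.06, limma adjusted p = 0.00051), Spg7 (-1.44, limma adjusted p = 0.0013) and Fxr2 (-0.88, limma adjusted p = 0.0042), with fitted log2 differences and limma adjusted p-values. Without that term the difference of Dap3 was 0.084, with a signal of 18698, 19649.8 and 19195 in WT eyes 1, 2 and 4 and of 19062 to 22415, with a median of 19956, in the Ftx-/- eyes. The ranges of the XX groups overlapped, and the step between slides 1 and 2 in this fit comes from the Ftx-/Y eyes. Map2k5 had a signal of 10635, 10309 and 10089 in WT eyes 1, 2 and 4 and of 7573 to 9343, with a median of 8144, in the Ftx-/- eyes and was lower in all 11 eyes without the term as well (-0.33 ± 0.09, limma adjusted p = 0.0079).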

How the data were processed

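Total RNA of each eye was labelled with Cy3 and hybridised to Agilent whole-mouse-genome 60-mer arrays. The deposited values are the background-subtracted processed-signal intensity of each spot from Feature Extraction 11.0.1.1, which the authors had not yet normalised between arrays. The log2 values were computed here from the intensities the authors deposited. Of 62976 spots an array 3671 were controls, and 120 non-uniform and 5631 population outlier spots were left out. Signals were normalised by quantile splines, as the authors' methods state, spots of a probe averaged, and probes with a mean WT XX signal above 500 tested. Positions are those of the scanner files (mm9), without exon annotation. Names are those of the array design. Of 28830 probes with a RefSeq accession 27428 were found in the RefSeq table, 2788 of them under another symbol, and the array's name was kept. List genes not found by name were matched through RefSeq synonyms.

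One limma fit (3.58.1, R 4.3.3, trended prior) covered 20 eyes in 4 groups. It was also run on simulated eyes with independent noise and no slide effect, so that run cannot bear on the confounding of genotype and slide. A gene of a list was represented by its brightest tested probe without a repeat (15 bases or more of units up to 6 bases). Named were the 12 largest rises and falls with the same direction in 11 eyes, the 4 rises and 2 falls largest on repeat probes, up to 4 called members a list by adjusted p (with fewer than 2 called, the 2 brightest), Ftx, Xist and up to 6 probes called with slide as a term. Other list members named were chosen after their values were seen. The members and lists were chosen with earlier results of these data known. The GC trend of each eye was a spline with 4 degrees of freedom. The number of arrays limits the precision. Results for some genes named by this rule are not reported here.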

Additional observations from a re-analysis of the deposited data

Results flagged for a closer look

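At 7 named genes every Ftx-/- XX eye lay on one side of the WT XX mean and every Ftx-/Y eye on the other side of the WT XY mean, with a called XX change. The XX minus XY difference itself passed the limma adjustment in none. Sncg had a log2 difference of -0.52 in XX and 0.08 in XY eyes (limma adjusted p of the difference 0.27), and Pou4f1 -0.33 and 0.09 (limma adjusted p = 0.24). Emp1, an epithelial membrane protein, had 1.05 in XX and -0.16 in XY eyes (limma adjusted p = 0.32). Shmt2, the mitochondrial enzyme that makes glycine from serine, had -0.38 and 0.19 (limma adjusted p = 0.15). Ndrg1 had -0.38 and 0.10 (limma adjusted p = 0.24), Rps6 0.20 and -0.05 (limma adjusted p = 0.15) and Ndufa4, a subunit associated with cytochrome oxidase, 0.31 and -0.05 (limma adjusted p = 0.19). With slide as a term the XX minus XY difference was -0.39 for Sncg, -0.34 for Pou4f1, 1.45 for Emp1, -0.53 for Shmt2, -0.42 for Ndrg1, 0.25 for Rps6 and 0.41 for Ndufa4, against -0.59, -0.43, 1.21, -0.58, -0.48, 0.25 and 0.36 without it. None passed the limma adjustment with slide either (0.20 to 0.48), and only the 3 Ftx-/Y eyes link the slides of WT and Ftx-/- eyes. Without WT eye 1 the XX difference of Emp1 was 0.65 (limma adjusted p = 0.20).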

How the results depend on the processing

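Counts of autosomal probes were 2235 higher and 2470 lower, with 24 lens genes lower and 0 probes differing between the XX and XY change. With slide as a fixed term they were 1, 9 and 0 lens genes, with the scan 2, 11 and 0, and with slide and the GC trend 2, 9 and 0. Slide as a random block (correlation between eyes of a slide 0.371) gave 1028 and 1318. Removing the GC trend gave 1363 lower and 13 lens genes. With no limit on signal the counts were 4085 and 4299, with 4 XX minus XY calls, and the knockout eyes of slide 3 alone gave 3726 lower and 2623 XX minus XY calls. An adjusted p below 0.01 gave 1303 and 1441, and a fold above 1.5 or below 0.67 gave 260 and 482, with 15 lens genes. The methods' t-test gave 1805 higher and 1454 lower after Benjamini-Hochberg adjustment, or 1714 and 1403 with the methods' fold limits and its unadjusted threshold. More were higher than lower also with 75th percentile scaling (2523 and 2098) and with the limit on the mean of the 14 XX eyes (2448 and 2266). Leaving out each of the 14 XX eyes in turn gave 1467 to 2336 higher, 1546 to 2589 lower, 17 to 27 lens genes and 0 XX minus XY calls. Replicate numbers did not pair the eyes (correlations of deviations -0.216, 0.139 and -0.0594), and the replicate block gave 1329 higher and 1 XX minus XY call. Of 132 named genes 0 kept their call with slide as a fixed term, 87 with it as a random block and 89 with the GC trend removed. Signs turned for Rpl27 (-0.012) with 75th percentile scaling, for Hbb-y (-0.11) with slide, for Cyp17a1 (0.20), Agrn (-0.020), Hbb-y (-0.11) and Psma3 (-0.089) with scan, for Rpl27 (-0.018), Sdhc (-0.017) and Hes6 (0.11) with the GC trend removed, and for Agrn (-0.058), Rpl27 (-0.049), Hbb-y (-0.19), Psma3 (-0.046) and Hes6 (0.085) with slide and GC trend together, a setting chosen after seeing the data. The cause was not tested.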
